A study of Mus musculus with 27 samples.

Results

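The comparison described here is SpenKO against WT after 24 h of doxycycline, taken from a table of allelic ratios of X-linked genes, with 2 libraries of each line (4 of the 27 samples of the series) and all 270 genes of the table. It asks what share of the silencing of each gene is lost when Spen is changed. All lines are female mouse embryonic stem (ES) cells of a 129S X Cast cross, in which the Xist promoter of the 129S allele was exchanged for a doxycycline-inducible TetOn promoter and a Bgl stem-loop array was added at the 3' end of Xist. Chromatin-associated RNA, which is rich in nascent transcripts, was sequenced from cells without doxycycline (0 h) and with 1 to 1.5 µg/mL doxycycline. WT is the parental line (named 10H) and SpenKO is a line whose factor the series text names SpenRRM. A further line, SPOCmut, carries a mutated SPOC domain of Spen and was sampled as 3 clones at 24 h and at 0 h. It is used below to show where SpenKO differs, and its libraries also enter the spread estimated for the tests of X genes. WT and SpenKO are given as 1 line each, and nothing says that their replicate libraries came from separate cultures. The p-values per gene thus rest on differences among libraries that may be technical repeats. For X genes these are pooled with differences among the SPOCmut clones. Line and genotype cannot be told apart. Feeder cells, fibroblasts inactivated with mitomycin, supported the ES cells in culture.

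Xist RNA spreads over the X chromosome it is transcribed from and silences its genes. SPEN is a large nuclear protein that binds Xist RNA, at the A repeat near its 5' end, through RNA recognition motifs (RRM), and its SPOC domain contacts corepressors such as NCoR/SMRT with its histone deacetylase HDAC3. Genes that stay partly active on the silenced X are called escape genes, and the region around Xist that holds its regulators is the X inactivation centre.

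Each gene has an allelic ratio in each library, a fraction between 0 and 1 that is read here as the 129S share of the allele-assigned reads, so that 0.5 is equal RNA from both X chromosomes and a fall is a loss of share from the X with the induced Xist. No source used here names the allele in the numerator, and this reading rests on Xist itself, which had a ratio of 0.933 to 0.999 in the 17 libraries of the table. Without expression levels, less RNA from the 129S X cannot be told apart from more RNA from the Cast X, nor fewer responding cells from a smaller response per cell. Read counts do not come with the fractions, so the depth is unknown. Spen is in none of the tables, so the targeted gene was not checked, and cell type markers could not be checked from ratios.

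After 24 h the X-linked genes of SpenKO cells stood near equal expression from both alleles, while in WT cells the 129S share of most genes had fallen well below that. The median ratio over the 270 genes was 0.503 and 0.506 in the 2 SpenKO libraries and 0.291 and 0.305 in the 2 WT libraries. Both SpenKO libraries lay above both WT libraries, by 0.206 between the group means of 0.504 ± 0.00173 and 0.298 ± 0.00968 (SD, n = 2 each; exact two-sided permutation p = 0.3333, the smallest that 2 against 2 libraries allow). Without doxycycline the medians were 0.514 and 0.504 in WT and 0.518 and 0.511 in SpenKO. In SpenKO at 24 h, 208 of the 270 genes had a mean ratio between 0.4 and 0.6, against 44 in WT, and 8 genes lay at or under 0.25, against 98 in WT. On chromosome 15, read as an autosomal control, the median over 458 genes was 0.514 and 0.519 in SpenKO and 0.515 and 0.517 in WT at 24 h.

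**Figure D1:**
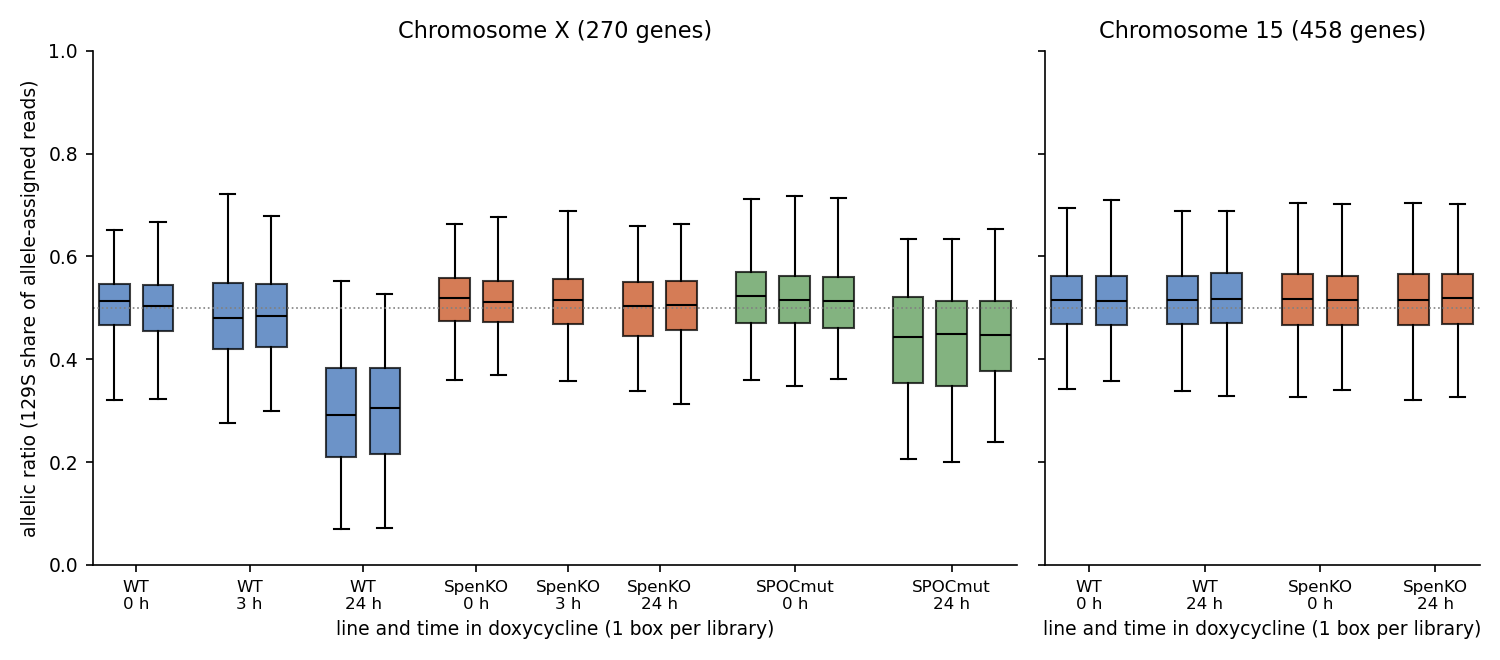
Allelic ratios per library (vertical axis, fraction) for X-linked genes (left) and chromosome 15 genes (right), with 1 box per library: the box spans the quartiles, the line is the median and the whiskers reach the 5th and 95th percentiles. The WT boxes at 24 h (medians 0.291 and 0.305) lie below all others on the X, the SpenKO boxes at 24 h lie at 0.503 and 0.506, and the chromosome 15 boxes stay level.

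Gene by gene, 238 of 270 X genes (88.1%) had a higher ratio in SpenKO than in WT at 24 h and 0 had a lower one, in limma at an adjusted p under 0.05 (240 and 0 at an unadjusted p under 0.05). The median difference was 0.195, with a median standard error (SE) of 0.0268. Both SpenKO libraries lay above both WT libraries in 253 genes (93.7%). Against the lines' own values at 0 h, the fall was smaller in SpenKO than in WT in 207 genes (76.7%) and larger in 0 (209 and 0 unadjusted), with a median difference of 0.183 between the responses. In WT the ratio fell from 0 h to 24 h in 240 genes (88.9%). Without doxycycline 0 genes differed between the lines in limma (18 higher and 4 lower in SpenKO unadjusted, smallest adjusted p = 0.285), and on chromosome 15 at 24 h 0 genes differed (13 higher and 19 lower unadjusted).

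**Figure D2:**
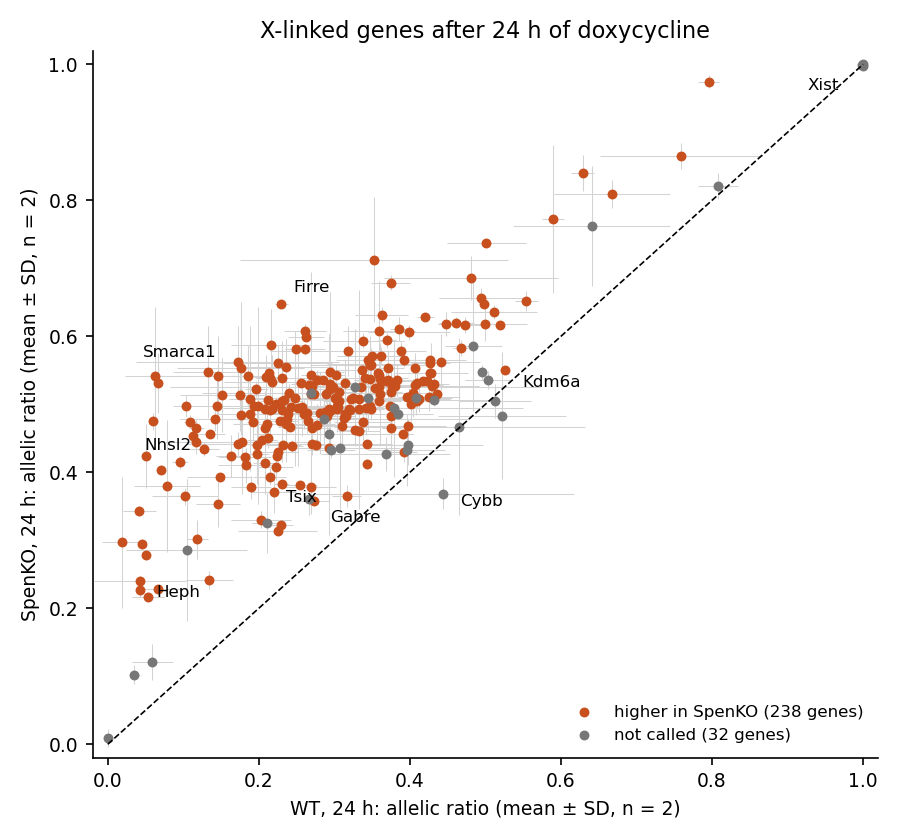
Mean allelic ratio of each of the 270 X genes at 24 h in WT (horizontal axis) and SpenKO (vertical axis), with SD over 2 libraries as thin lines, and the dashed line marking equal ratios. The 238 orange genes, called higher in SpenKO by limma, mostly lie in a band near 0.5 on the vertical axis, and Cybb, the uncalled gene farthest below the line, is at 0.369 in SpenKO and 0.444 in WT.

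Several of the widest gaps between the lines belonged to genes with a ratio under 0.1 in both WT libraries. These genes were picked for their gaps, and the number of reads behind their ratios is unknown. Smarca1, an ISWI chromatin remodeller, was at 0.0909 and 0.0345 in the WT libraries and at 0.613 and 0.471 in the SpenKO libraries at 24 h, a difference of 0.479 ± 0.0589 (SE, adjusted p = 1.79e-05). Pja1, an E3 ubiquitin ligase, was at 0.0625 and 0.0714 in WT and at 0.500 and 0.562 in SpenKO. Both genes thus went from under 0.1 in each WT library to near 0.5 in SpenKO, with no overlap. The SpenKO values of Pja1 at 0 h, 0.414 and 0.750, were far apart, and its difference carried the wide SE of 0.110 (0.464, adjusted p = 0.00221).

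Firre, a long noncoding RNA gene and a known escape gene, gave the most precise of these gaps. It stood at 0.236 and 0.223 in WT and at 0.645 and 0.649 in SpenKO, where its 0 h values had been 0.662 and 0.655 (difference at 24 h 0.418 ± 0.00971, adjusted p = 9.16e-11). Nhsl2 was at 0.0647 and 0.0552 in WT and at 0.466 and 0.484 in SpenKO (0.415 ± 0.0179, adjusted p = 9.86e-09). For both genes the SpenKO libraries at 24 h and at 0 h were nearly the same.

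Further genes of the 10 widest gaps covered several functions. L1cam, a neural cell adhesion gene, was at 0.167 and 0.100 in WT and 0.500 and 0.596 in SpenKO. Kis2 was at 0.0532 and 0.0476 against 0.391 and 0.458. In both genes the lines did not overlap, and the differences were 0.415 and 0.374. Dnase1l1 of the DNase I family, Slc25a43, a mitochondrial carrier gene, and Prrg3 had differences of 0.396, 0.390 and 0.377 with SE of 0.0972, 0.117 and 0.0769. The call of Slc25a43 was lost without WT 24 h replicate 1, at a difference of 0.295.

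To express the loss per gene, the fall of the ratio in SpenKO was set against the fall in WT, each from its own 0 h value: a share lost of 100% means no fall in SpenKO and 0% a fall as large as in WT. It was given for the 225 genes whose WT fall passed the test and reached 0.1. The remaining 45 genes have no share, 30 because the WT fall did not pass and 15 because it was under 0.1. The median share lost was 94.7%, with quartiles of 86.0% and 102.6%. The share was under 80% in 36 genes and under 50% in 3, and above 100% in 68, where SpenKO ended above its 0 h value. The 95% interval of the share (Fieller's method, with limma's variances) had a median width of 58.5 percentage points. It lay above 0% in 196 genes, above 50% in 158 and below 100% in 17, and it lay above 100% in 0. The intervals are not adjusted for the number of genes. By construction these 17 genes are among the 18 with an unadjusted p under 0.05 for the fall in SpenKO (limma), of which 2 passed adjustment. Both counts ask whether the SpenKO change differs from 0, with the same variances.

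Because many intervals are wide, the 83 genes with an interval narrower than 50 points are also given apart. They do not show the full range, since the interval widens as the SpenKO fall grows relative to the WT fall. Low shares such as those of Gabre, Tmem28, Heph and Aff2 are thus left out, and all 225 shares ran from 18.7% to 152%. The median share of the 83 was 94.8%, from 51.0% to 114%. Of their intervals 82 lay above 50%, which the limit on the width itself favours. The highest of them were Maoa, which encodes the mitochondrial monoamine oxidase A, at 114% (interval 96.9 to 132%), and Syn1, a synaptic vesicle protein gene, at 113% (96.3 to 131%). Maoa stood at 0.530 and 0.520 in SpenKO at 24 h and at 0.503 and 0.506 at 0 h, against 0.371 and 0.382 in WT at 24 h. Dlg3, a synaptic scaffold gene, reached 112%, the unnamed transcript 1810030O07Rik 112% and the palmitoyltransferase gene Zdhhc9 108%. All 5 intervals included 100%.

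**Figure D3:**
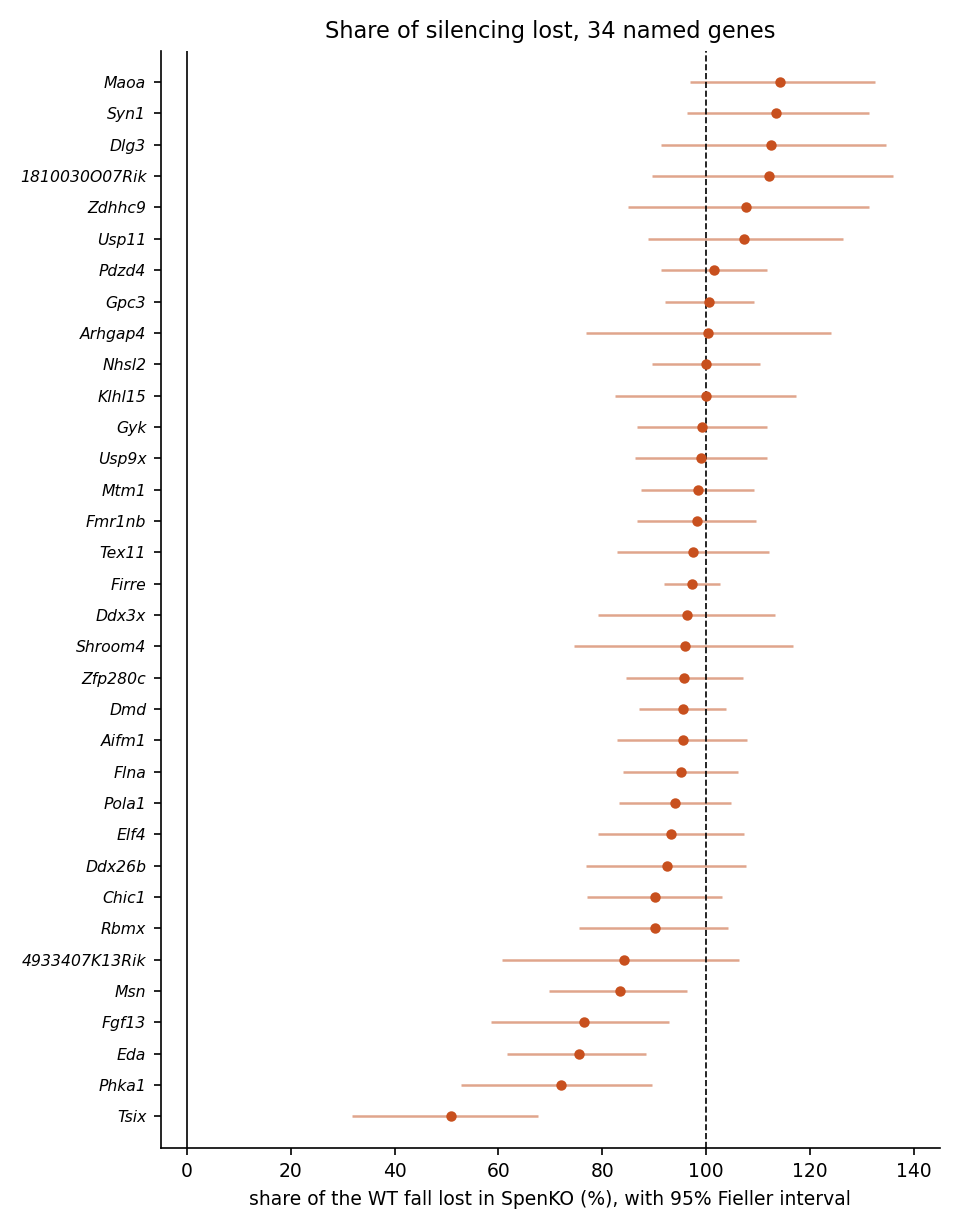
Share of the WT fall that was lost in SpenKO (horizontal axis, percent), with its 95% Fieller interval as a line, for 34 named genes whose interval is narrower than 50 points. Most points lie close to the dashed line at 100% (no fall in SpenKO), and Tsix, at 51.0%, lies lowest, followed by Phka1, Eda and Fgf13.

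The same values were also put on the scale of allele odds. As the ratio of 129S to Cast RNA at 24 h over that at 0 h, the median over all 270 genes was 42.3% in WT, 96.3% in SpenKO and 75.6% in SPOCmut.

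A fall in SpenKO itself passed the test in 2 of 270 genes (0.741%), Tsix and Gabre, and a rise in 0 (18 and 1 at an unadjusted p under 0.05). Tsix, the noncoding antisense partner of Xist (chrX:103431516-103484957, mm10), was at 0.543 and 0.535 in SpenKO at 0 h, at 0.351 in the lone library at 3 h and at 0.403 and 0.385 at 24 h. In WT it went from 0.500 and 0.521 to 0.230 and 0.199. So Tsix fell in both lines, by 0.145 ± 0.0211 in SpenKO (adjusted p = 0.00900), and the SpenKO libraries at 24 h lay between the WT libraries of both times. Its share lost was 51.0% (31.9 to 67.6%). Tsix overlaps Xist on the opposite strand, and the strand setting of the counting is not given in the sources used here, so reads of the pair cannot be told apart with certainty.

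Gabre, the gene of the epsilon subunit of the GABA-A receptor (chrX:72257431-72274721), was at 0.492 and 0.527 in SpenKO at 0 h, at 0.633 in the lone 3 h library and at 0.354 and 0.362 at 24 h. In WT at 24 h it was at 0.287 and 0.258. The fall in SpenKO was 0.152 ± 0.0266 (adjusted p = 0.0212), and its share lost, 18.7%, was the lowest of all 225 genes, with an interval of -33.7 to 53.4%. Each of these 2 calls rests on few libraries: both were lost, leaving 0 genes, when either SpenKO library of 24 h or replicate 2 of SpenKO at 0 h was left out, with only the libraries compared in the fit, and with Benjamini-Yekutieli adjustment.

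Further genes had a lower value at 24 h that did not pass, some by as much as Tsix and Gabre with a larger SE. The 2 libraries at 24 h lay below both libraries at 0 h in 74 of 270 genes (27.4%) and above both in 24, and the change was below 0 in 182 genes, at a median of -0.00937. The largest falls among these 74, beside Tsix and Gabre, included those of Cybb (-0.187), Tmem28 (-0.172), the ferroxidase gene Heph (-0.157), Aff2 of the AF4/FMR2 family (-0.121), the centrin gene Cetn2 (-0.121), Eras (-0.102) and Glod5 (-0.0948). None of these 7 passed, and their adjusted p ran from 0.0834 for Aff2 to 0.847 for Glod5. Aff2 was at 0.509 and 0.476 at 0 h and at 0.393 and 0.350 at 24 h in SpenKO, with a share lost of 52.5% (23.4 to 76.3%). Heph was at 0.384 and 0.412 before and at 0.245 and 0.236 after.

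The 18 genes with an unadjusted p under 0.05 for the fall in SpenKO are described by position and length, chosen after their values were seen and with no test. Of these genes 10 start beyond 80 Mb, toward Xist, where 58 of all 270 genes start. Among them are Pcyt1b, Msn, Heph, Tmem28, Eda, Hdac8, Phka1 and Tsix. Of the 18, 13 are among the 90 longest genes of the table. With well-determined shares, the kinase subunit gene Phka1 lost 72.0% (52.8 to 89.5%), Eda, the ectodysplasin ligand gene, 75.5% (61.7 to 88.5%) and Fgf13 of the fibroblast growth factor family 76.4% (58.7 to 92.9%). Phka1 was at 0.402 and 0.446 in SpenKO at 24 h and at 0.521 and 0.515 at 0 h, against 0.149 and 0.177 in WT at 24 h. Eda was at 0.427 and 0.418 after 0.494 and 0.489, against 0.158 and 0.206 in WT. In SpenKO at 24 h Phka1 and Eda thus lay well above WT. They also lay under their own start, which follows from choosing genes by their fall.

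Along the X, the gap between the lines and the WT change varied between stretches and did not change steadily from bin to bin. All genes start between 6.05 and 103.5 Mb. From 0 to 20 Mb SpenKO exceeded WT in 43 of 54 genes, with a median difference of 0.163, and from 100 Mb to Xist 25 of 26 (Xist being the exception) with a median of 0.242. Between them, the median difference was 0.241 from 40 to 60 Mb and 0.183 from 60 to 80 Mb, where the WT change was -0.242 and -0.189. Both were largest in size from 80 to 100 Mb, at 0.249 and -0.268. The median WT change in the first and last bins was -0.156 and -0.256, and the SpenKO change -0.0135 and -0.00690. The median share lost ran from 93.3% (40 to 60 Mb) to 96.9% (60 to 80 Mb) over the 6 bins of 20 Mb, with 93.8% at the far end and 96.7% next to Xist. Over 269 genes the Spearman correlation with distance to Xist was 0.305 for the WT change, 0.00430 for the SpenKO change and -0.258 for the difference at 24 h, and over 225 genes -0.00316 for the share lost. These are descriptions over genes of the same libraries, which are not independent replicates.

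**Figure D4:**
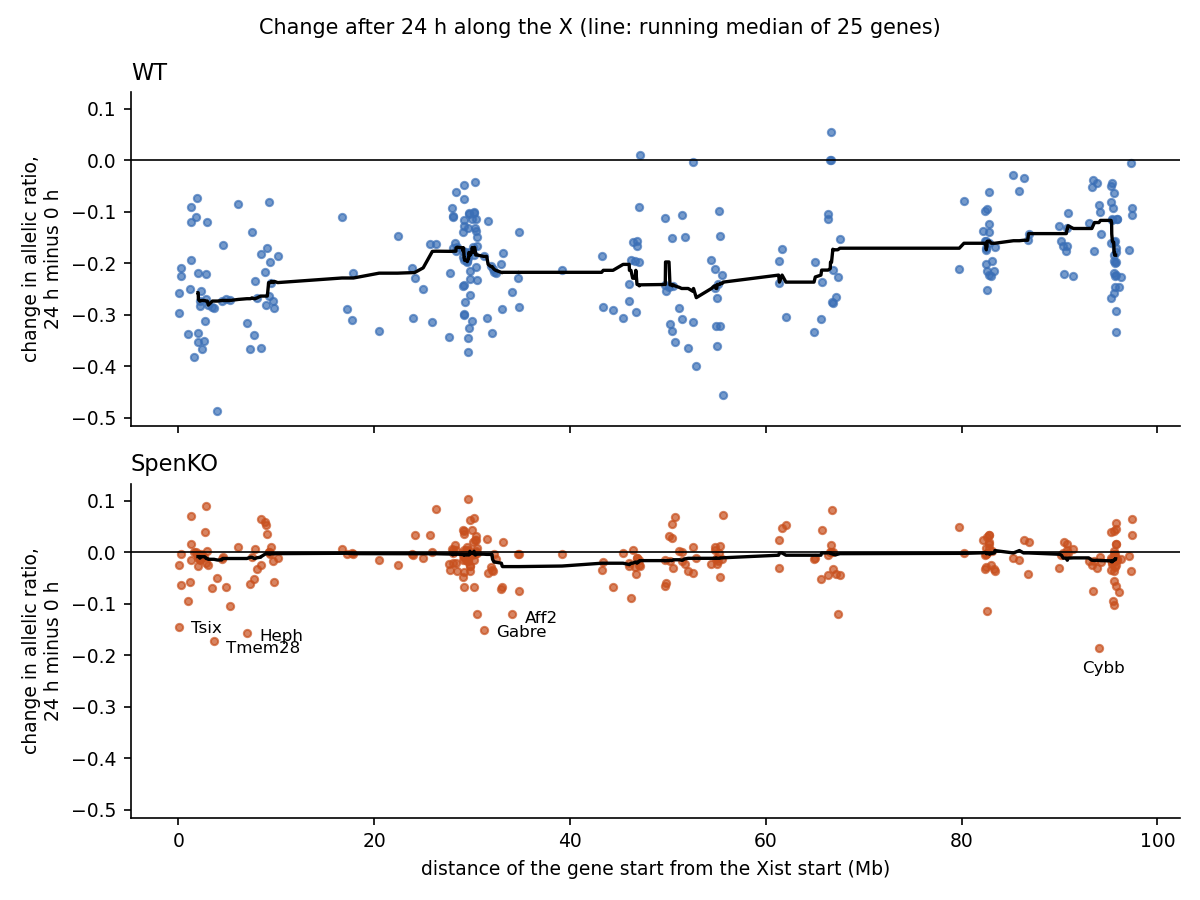
Change in allelic ratio from 0 h to 24 h (vertical axes) against the distance of the gene start from the Xist start in Mb (horizontal axis), in WT (top) and SpenKO (bottom), with 1 point per gene for 269 genes and a running median of 25 genes. The median WT change was largest in size for genes starting at 80 to 100 Mb (-0.268), against -0.256 from 100 Mb to Xist. The SpenKO line stays close to 0, and neither line reaches the outermost genes. Tsix, Tmem28, Heph, Gabre, Aff2 and Cybb are the labelled points below the SpenKO line.

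The ratio of 46 genes had fallen in WT at 3 h, and that of 14 had risen. Each of the 46 was higher in SpenKO than in WT at 24 h and had a smaller fall there, beside 88.1% and 76.7% of all genes. The 46 were chosen on WT libraries at 3 h and 0 h, and the latter also enter the WT fall. Over these genes the medians at 0, 3 and 24 h were 0.519, 0.424 and 0.260 in WT and 0.528, 0.518 and 0.513 in SpenKO. The median share lost was 97.5% in the early genes with a share and 93.9% in the rest.

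All 8 measured of the 12 listed escape genes were higher in SpenKO at 24 h, and 7 had a smaller fall, beside 88.1% and 76.7% of all genes. Ddx3x, an RNA helicase gene, was at 0.351 and 0.346 in WT and at 0.482 and 0.503 in SpenKO, with a share lost of 96.4% (79.3 to 113%). Shroom4, a cytoskeletal regulator, was at 0.290 and 0.335 against 0.486 and 0.475. Utp14a, a ribosome biogenesis gene, was at 0.523 and 0.515 against 0.612 and 0.620, and the translation initiation factor gene Eif2s3x at 0.381 and 0.401 against 0.454 and 0.458. No pair of lines overlapped in these 4 genes. The smaller fall in SpenKO came to 0.167 for Shroom4, 0.151 for Ddx3x, 0.0970 for Utp14a, 0.0815 for Eif2s3x, 0.149 for 1810030O07Rik, 0.185 for 4933407K13Rik and 0.388 for Firre (adjusted p from 7.52e-09 to 0.00789). Kdm6a, a histone demethylase gene, stayed above 0.5 in WT, at 0.526 and 0.527 against 0.554 and 0.547 in SpenKO at 24 h. The difference was 0.0239 ± 0.00868 (adjusted p = 0.0231). Its fall in WT from 0 h was called, like that of all 8 measured escape genes. The difference of its responses, 0.0173 ± 0.0123, did not pass (adjusted p = 0.210).

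At the X inactivation centre, 4 of 11 listed genes were measured and 3 were higher in SpenKO, beside 88.1% of all genes. Chic1, the neighbour of Xist, was at 0.228 and 0.257 in WT and at 0.497 and 0.496 in SpenKO, with a share lost of 90.2% (77.0 to 103%) against 51.0% for Tsix, and their intervals did not overlap. The smaller fall came to 0.232 ± 0.0212 for Chic1 and 0.151 ± 0.0299 for Tsix (adjusted p = 5.20e-06 and 0.000924). Nap1l2, a nucleosome assembly protein gene, was at 0.0370 and 0 in WT and at 0.365 and 0.229 in SpenKO, and the difference of its responses did not pass (0.222 ± 0.135, adjusted p = 0.151), though it did in 3 of 16 alternatives (log2 odds, and the 2 smaller sets of libraries in the fit). Xist itself was at 0.998 and 0.999 in both lines at 24 h, and at 0.991 and 0.933 in SpenKO at 0 h.

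The functional lists are given beside 88.1% of all genes higher in SpenKO and a median share lost of 94.7% over all genes with a share. Of the chromatin and transcription genes 32 of 35 were higher in SpenKO, with a median share of 94.4%. Pola1, which encodes the DNA polymerase alpha catalytic subunit, was at 0.356 and 0.365 in WT and 0.531 and 0.543 in SpenKO. The zinc finger gene Zfp280c was at 0.241 and 0.280 against 0.601 and 0.615, and the ETS factor gene Elf4 at 0.222 and 0.198 against 0.517 and 0.563. Their shares were 94.1%, 95.8% and 93.3%, each with an interval that included 100%.

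Of the RNA processing and translation genes 21 of 22 were higher (median share 93.0%). The splicing factor gene Rbmx was at 0.217 in both WT libraries and at 0.488 and 0.498 in SpenKO, and Ddx26b at 0.305 and 0.336 against 0.494 and 0.490. Among metabolic genes 31 of 33 were higher (94.1%). The phosphoinositide phosphatase gene Mtm1 was at 0.267 and 0.264 in WT and at 0.477 and 0.475 in SpenKO, the glycerol kinase gene Gyk at 0.393 and 0.356 against 0.686 and 0.671, and the mitochondrial flavoprotein gene Aifm1 at 0.278 and 0.290 against 0.536 and 0.534. Gyk reached its high SpenKO value from a ratio that was already 0.670 and 0.692 at 0 h, so its share was 99.2%.

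Among ubiquitin and proteolysis genes 11 of 13 were higher (98.5%). The deubiquitinase genes Usp9x and Usp11 lost 99.0% and 107%, and Klhl15, a cullin adaptor gene, 99.9%. Usp9x was at 0.357 and 0.361 in WT and at 0.544 and 0.543 in SpenKO. Of the neural genes 23 of 25 were higher (97.4%), with Dmd, the dystrophin gene, at 0.121 and 0.149 against 0.455 and 0.457 and Pdzd4 at 0.246 and 0.280 against 0.603 and 0.596. The neural list also holds the lowest share, that of Gabre.

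Of the pluripotency, development and germline genes 19 of 23 were higher (98.6%). The glypican gene Gpc3 was at 0.216 and 0.209 in WT and at 0.508 and 0.506 in SpenKO, after 0.503 and 0.507 at 0 h (share 101%, 92.0 to 109%). The meiosis gene Tex11 was at 0.104 and 0.115 against 0.481 and 0.467, and Fmr1nb at 0.294 and 0.310 against 0.555 and 0.531. Of lists of genes of other cells that the cultures could hold, 13 of 15 genes listed for fibroblast feeder cells were higher in SpenKO (median share 93.8%). The actin crosslinker gene Flna was at 0.242 and 0.238 against 0.508 and 0.526. Srpx and Il13ra1 of this list were not called, and Il13ra1 had its lowest share, 47.1%. Of the listed blood and immune genes 3 of 5 were higher (91.9%), among them the ERM family gene Msn, the GTPase-activating protein gene Arhgap4 and the signalling kinase gene Irak1, with shares of 83.4%, 100% and 105%. The other members, Il13ra1, with the list's lowest share of 47.1%, and Cybb, with a difference of -0.0753, did not pass. ES cells express several of these genes too, the summed level of the markers cannot be had from ratios, and the part of feeder RNA in the ratios was not tested.

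**Figure D5:**
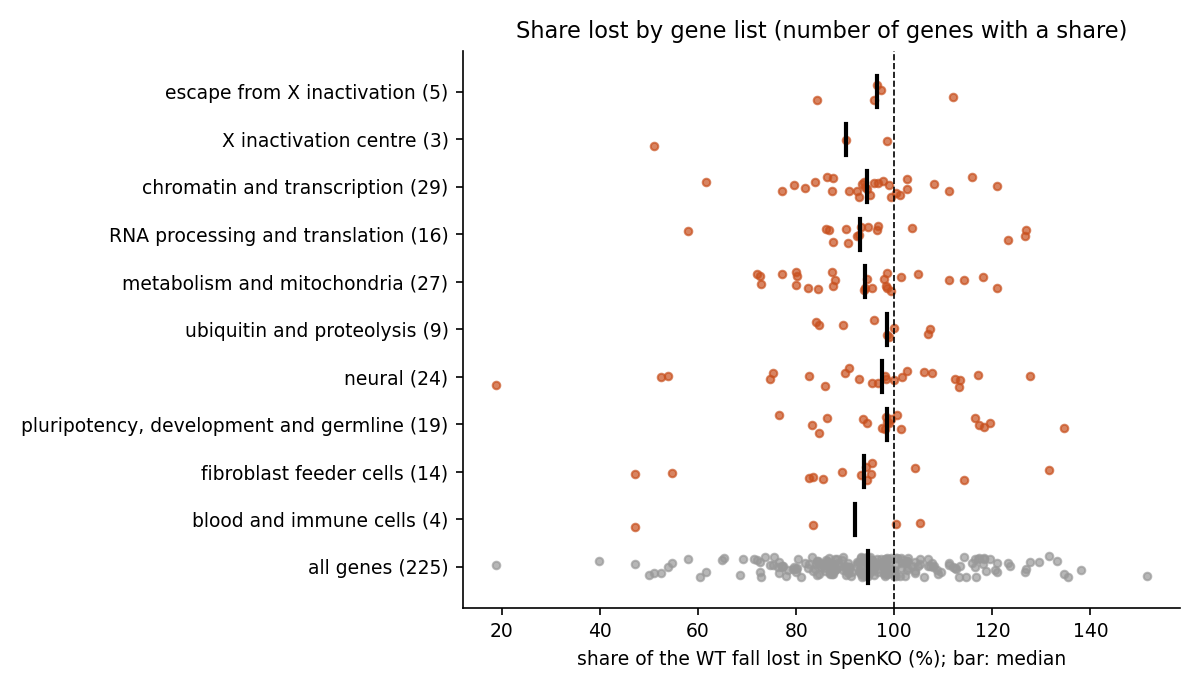
Share of the WT fall lost in SpenKO (horizontal axis, percent) for each gene with a share, by gene list, with black bars for the medians and the number of genes in brackets. The medians of the lists lie between 90.2% and 98.6%, and the grey points show all 225 genes, with a median of 94.7%.

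Most of the 32 genes not called higher in SpenKO had a large spread between replicates or no called fall in WT. Of these, 25 were among the 90 genes with the largest spread between replicates, 16 still had both SpenKO libraries above both WT libraries, and 23 had no called fall in WT. Of the 5 genes with a ratio near 0 or 1 at the start, 4 were among them: Ube2a, at 1 in every library of both lines, C330007P06Rik, Frmd7 and Xist. Dynlt3, a dynein light chain gene, was at 0.789 and 0.826 in WT and 0.807 and 0.835 in SpenKO at 24 h, which overlap. The difference was below 0 in 4 genes, Cybb, Slc25a5, C330007P06Rik and Zfp449, and did not pass in any of them. Slc25a5 and Rbmx (above) have processed copies elsewhere in the genome that may share reads, so their values are uncertain. Cybb, an NADPH oxidase subunit gene, was at 0.567 and 0.321 in WT and at 0.353 and 0.385 in SpenKO (-0.0753 ± 0.0739, adjusted p = 0.347). Its WT libraries lay on both sides of the SpenKO ones, and without WT 24 h replicate 2 the gene was called lower in SpenKO (-0.198, adjusted p = 0.0181). A 95% interval of the difference at 24 h had a median half-width of 0.0593.

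Many genes were lower in SPOCmut, the line most like SpenKO, than in SpenKO itself. Its median ratios at 24 h were 0.443, 0.449 and 0.446 in the 3 clones, 0.0584 below the mean of SpenKO (exact two-sided permutation p = 0.2, the smallest that 3 against 2 libraries allow). In limma 110 of 270 genes (40.7%) were lower in SPOCmut than in SpenKO at 24 h, and 3 were higher, Eras, Cybb and F8 (128 and 4 unadjusted). Of the 46 early genes 32 were lower in SPOCmut, and of 8 escape genes 2. Nhsl2 was at 0.207 in SPOCmut and 0.475 in SpenKO (difference -0.268, adjusted p = 1.18e-06), and Firre at 0.504 and 0.647 (-0.143, adjusted p = 1.18e-06). For Tsix and Gabre, which fell in SpenKO, the SPOCmut means of 0.353 and 0.324 differed from SpenKO by -0.0412 and -0.0341, which did not pass (adjusted p = 0.115 and 0.303). Usp9x was at 0.540 and Pdzd4 at 0.590 in SPOCmut, with differences of -0.00326 and -0.00961 that did not pass either.

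Promoter sequences were set beside these values, to show genes with a low share lost and genes with a share near 100%. RefSeq promoters (GRCm38.p6, 250 bases before to 50 after the start) matched 211 of the 270 genes by symbol and strand. CpG-rich promoters, with CG at 0.6 or more of the number expected from the C and G content, made up 57.8% of the 211 and 35.8% of the 32851 promoters of the whole table. The share was 58.5% of the 183 matched genes higher in SpenKO, 53.6% of the 28 not called, 57.0% of the 86 genes with a share lost below the median and 59.3% of the 86 at or above it. Below, CG is in capitals in 2 promoters of genes with a low share lost, Gabre (18.7%; chrX:72274672-72274971, minus strand, 24 CG) and Phka1 (72.0%; chrX:102644197-102644496, minus strand, 25 CG), and in 2 of genes with a share near 100%, Firre (97.2%; chrX:50635272-50635571, minus strand, 12 CG) and Gpc3 (101%; chrX:52613925-52614224, minus strand, 30 CG), each written 5′ to 3′ in the direction of transcription.
Gabre: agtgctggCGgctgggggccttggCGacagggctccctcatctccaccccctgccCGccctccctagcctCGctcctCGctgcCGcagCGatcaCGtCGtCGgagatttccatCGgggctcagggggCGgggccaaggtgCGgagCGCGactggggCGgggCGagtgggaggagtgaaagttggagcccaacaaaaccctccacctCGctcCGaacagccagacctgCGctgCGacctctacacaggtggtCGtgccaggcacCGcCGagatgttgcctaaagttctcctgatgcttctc
Phka1: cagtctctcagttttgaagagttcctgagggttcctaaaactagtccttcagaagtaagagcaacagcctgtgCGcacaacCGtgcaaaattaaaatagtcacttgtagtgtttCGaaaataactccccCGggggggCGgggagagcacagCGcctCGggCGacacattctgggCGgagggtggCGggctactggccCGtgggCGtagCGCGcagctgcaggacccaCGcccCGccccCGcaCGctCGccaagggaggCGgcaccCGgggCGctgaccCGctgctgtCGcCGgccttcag
Firre: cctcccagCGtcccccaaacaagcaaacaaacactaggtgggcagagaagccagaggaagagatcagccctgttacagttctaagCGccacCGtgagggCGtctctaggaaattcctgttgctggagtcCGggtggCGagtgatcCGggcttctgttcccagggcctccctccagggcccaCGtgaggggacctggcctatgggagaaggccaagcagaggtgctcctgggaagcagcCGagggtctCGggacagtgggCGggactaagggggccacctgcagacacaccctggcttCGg
Gpc3: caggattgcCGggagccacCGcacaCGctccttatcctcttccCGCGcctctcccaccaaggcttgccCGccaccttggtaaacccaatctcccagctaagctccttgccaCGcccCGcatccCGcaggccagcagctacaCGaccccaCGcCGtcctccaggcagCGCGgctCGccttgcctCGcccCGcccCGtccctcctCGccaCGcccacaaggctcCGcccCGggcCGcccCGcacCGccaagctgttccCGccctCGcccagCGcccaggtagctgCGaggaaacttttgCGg
The stretches of Gabre and Phka1 thus hold CG counts between those of Firre and Gpc3, but the printed promoters were picked by name. That of Firre, at 0.410 of the expected CG, is not CpG-rich. Nor is that of Aff2, not printed, with a share lost of 52.5%, 16 CG and 0.500 of the expected number. The groups by share lost differed by few percentage points in CpG-rich promoters, a description with no test.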

How the data were processed

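The members are 2 libraries each of SpenKO and WT at 24 h and all genes of their table; the comparison and the gene lists were chosen with earlier results of these data known. The authors deposited allelic ratios, a fraction per gene and library, with no read counts, so depth and counting error are unknown. Tools named in the submitters' processing notes, with no role stated, are STAR 2.4.2a, Bowtie2 2.3.2, edgeR, featureCounts, bedtools and SAMtools, and the build is mm10. How the authors chose the genes of each table is not given in the sources used here. Columns that name doxycycline but no time are read as 24 h, since 3 h columns stand apart. Per the labels the chromosome 15 table belongs to a male transgene line, but its column names match the WT and SpenKO X lines, so it served as an autosomal control. The values of the 248 genes in both X tables are identical, and replicate libraries share at most 1.11% of equal values.

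Ratios were fitted with limma 3.58.1 in R 4.3.3 (group means, empirical Bayes, Benjamini-Hochberg adjustment; 17 libraries and 270 genes for the X, 8 libraries and 458 genes for chromosome 15) and called at an adjusted p under 0.05. The share lost is 100 x (1 - SpenKO change / WT change), for WT falls called and of at least 0.1, with 95% Fieller intervals. Named genes are the 10 widest gaps at 24 h with non-overlapping libraries, the 10 largest falls in SpenKO with non-overlapping libraries, the 5 lowest and 5 highest shares with intervals under 50 points, all escape and centre genes, the 3 strongest response differences of each other list, and the 5 most precise genes not called. Genes outside this rule (Pcyt1b and Hdac8 among the 18 genes with an unadjusted p under 0.05 for the fall in SpenKO, Il13ra1, Srpx, Slc25a5, Zfp449, F8) were named after their values were seen. A few genes that the rule names are not reported here. Alternatives: log2 odds, the libraries in the fit, a replicate block, other adjustments, a minimum change of 0.1, leaving out noisy genes or each library.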

Additional observations from a re-analysis of the deposited data

Results flagged for a closer look

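The response to doxycycline itself differed between SpenKO and WT in 207 of 270 X genes by the interaction contrast in limma, each with the smaller fall in SpenKO. Among the escape and X inactivation centre genes, the difference of the responses (SpenKO minus WT, 2 libraries per group) was 0.388 for Firre, 0.232 for Chic1, 0.185 for 4933407K13Rik, 0.167 for Shroom4, 0.151 for Ddx3x, 0.151 for Tsix, 0.149 for 1810030O07Rik, 0.0970 for Utp14a and 0.0815 for Eif2s3x. Of these 9 genes, Tsix is the one that also fell in SpenKO.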

How the results depend on the processing

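Across the alternatives, the numbers of genes higher in SpenKO at 24 h and with a smaller fall stayed within 1.5 times the reported ones; leaving out a library gave 221 to 226 and 191 to 199 genes, and 217 to 230 for the WT fall. The number falling in SpenKO went from 2 to 0 with only the libraries compared in the fit or Benjamini-Yekutieli adjustment, to 1 with only WT and SpenKO libraries, and to 0 to 2 when a library was left out. SPOCmut against SpenKO gave 66 genes with Benjamini-Yekutieli adjustment, 58 with a minimum change of 0.1 and 75 to 105 without 1 library. The median share lost was 99.9% with the direct difference at 24 h as numerator, 93.0% as a ratio of medians over all genes, and 93.3 to 95.8% without 1 library. The difference of the median ratio was 0.198 as a mean over genes, 0.223 over genes with a called WT fall, and 0.199 to 0.213 without 1 library. Differences near 0 changed sign when a library was left out: Xist at 24 h ran from -0.000138 to 0.000770, Dynlt3 from -0.00523 to 0.0323 (and -0.000312 without SpenKO 24 h replicate 2), and the response difference of Xist from -0.00265 to 0.0554. The cause of these changes was not tested. The call of Irak1 was lost in 8 of 17 alternatives, with adjusted p up to 0.161.

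The labels do not say that replicate numbers pair the samples, and the data gave no steady sign of it: the correlation of same-numbered deviations was 0.0329 between WT and SpenKO at 24 h, 0.112 between SpenKO at 0 h and 24 h, 0.101 between WT at 0 h and 24 h, and -0.162 to 0.161 over all group pairs of these lines. With the replicate block 237 genes were higher in SpenKO, 205 had a smaller fall, 0 fell in SpenKO, and 79 were lower in SPOCmut than in SpenKO.

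Groups of 2 libraries from 1 line each, unknown depth and ratios without levels limit these results. Genes with a large spread between replicates have shares with wide intervals, and genes past Xist are not covered.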

Other observations

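The lone SpenKO library at 3 h gave values that belong to no test. It lay below both SpenKO libraries of 0 h in 105 of 270 genes and in 27 of the 46 genes that had fallen in WT at 3 h. Among the 18 genes with an unadjusted p under 0.05 for a fall in SpenKO at 24 h, it lay below both in 9. The same 0 h libraries were used to choose these 18 genes, which favours such a count. Tsix was already at 0.351 in this library, against 0.403 and 0.385 at 24 h, while Gabre, at 0.633, and Aff2, at 0.517, were not low at 3 h. Of the same 18 genes, 11 were lower in SPOCmut than in SpenKO at 24 h, beside 40.7% of all genes. The SpenKO libraries at 24 h were also used to choose the 18.

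The 5 genes with the highest moderated statistic for 24 h against 0 h in SpenKO, among the 24 whose libraries at 24 h lay above both at 0 h, were Xist (0.991 and 0.933 to 0.998 and 0.999), Maoa (0.503 and 0.506 to 0.530 and 0.520), Syn1 (0.564 and 0.566 to 0.602 and 0.586), Pin4 and Pdzd11, none of which passed (adjusted p from 0.597 to 0.831). Without SpenKO 0 h replicate 1, Xist was called higher at 24 h than at 0 h in SpenKO (0.0659, adjusted p = 0.0448).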
